A study of Homo sapiens with 6 samples.

Results

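Epithelial cells are held together by adherens junctions, desmosomes, tight junctions and gap junctions, and 49 genes that encode structural proteins of these junctions are described here in A549 cells after knockdown of CEP20. The genes were chosen by name and known role, with no threshold on measured values but with earlier results of these data known. They are among the 60624 genes of the expression table and fall into 8 classes by the junction and the role of the protein. All 49 were found in the table through their GENCODE symbols. Of these, 47 reached a mean of at least 1 TPM over the 6 libraries and were tested, while NECTIN4 and CGNL1 stayed below it.

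In adherens junctions, cadherins reach across to the neighbouring cell and bind catenins inside, which connect them to actin, and nectins with their partner afadin form a parallel adhesion system. Desmosomes couple desmogleins and desmocollins through plakoglobin, plakophilins and desmoplakin to keratin filaments. Tight junctions seal the space between cells with claudins and occludin on a plaque of zonula occludens proteins, their position is set by the PAR, Crumbs and Scribble polarity complexes, and gap junction channels are built from connexins.

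The A549 line, derived from a human lung adenocarcinoma, was sequenced as 3 siCEP20 samples, transfected with small interfering RNA (siRNA) against CEP20, a centrosomal protein, and 3 siCTR samples, transfected with a control siRNA. The treatment field reads plasmid transfection for all 6 samples, while the titles and the study's methods give siRNA. Both groups were kept for 3 days after transfection according to the labels, and the labels do not give which siRNA sequence was used or whether replicates were separate cultures, so p-values measure only the spread between these samples. TPM is a relative transcript abundance already corrected for transcript length, which allows levels of different genes to be set side by side, while the sequencing depth behind it is unknown. In such bulk samples, fewer cells of a kind and less RNA per cell cannot be told apart. CEP20 itself stood at 29.2, 30.5 and 35.1 TPM in the siCTR samples and 16.2, 15.3 and 17.3 TPM in the siCEP20 samples (log2 fold change -0.92, adjusted p = 0.000205 from limma), with no overlap between the groups. Of 8 markers fixed for A549-type epithelial cells, 8 were tested, with a summed level between 10150 and 10650 TPM in siCTR and between 12020 and 12300 TPM in siCEP20 libraries. In limma AKR1B10 (log2 fold change -0.18, adjusted p = 0.0163) and AKR1C1 (-0.33, adjusted p = 0.0019) were lower in siCEP20 samples. The other markers of this list were higher, and EPCAM was at a mean of only 1.04 TPM in siCTR. After the median-of-ratios scaling described below, KRT18, KRT19 and KRT7 did not pass (limma, adjusted p = 0.272, 0.0698 and 0.841). KRT8, ALDH1A1 and EPCAM remained higher on that scale. Leukocyte markers summed to at most 11.96 TPM and endothelial markers to at most 0.125 TPM in any library. Of 6 fibroblast markers, COL1A2 and DCN were at 0 in every library and COL1A1 alone was tested, so that the list's sum of 5.58 to 6.09 TPM in siCTR and 17.7 to 20.3 TPM in siCEP20 samples was mostly COL1A1. The part of COL1A1-expressing cells in the results was not tested.

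A larger share of the junction genes was higher in siCEP20 samples than of all genes, and few were lower. At a Benjamini-Hochberg adjusted p-value under 0.05 (limma on log2(TPM + 1)), 22 of the 47 tested members (46.8%) were higher, against 30.2% of all 14778 tested genes, and 1 member was lower, against 13.2%. With the study's threshold of a fold change over 1.5 or under 0.67 added, 13 members were higher, against 11.2% of all tested genes, and 0 were lower, against 4.61%. At an unadjusted p-value under 0.05, with no fold threshold, 28 members were higher and 2 lower, against 35.8% and 15.8% of all tested genes. For 31 of the 47 members every siCEP20 value lay above every siCTR value, against 38.4% of all tested genes, for 4 every value lay below, against 17.0%, and for 12 the groups overlapped. DSC2 and GJB2, which are among the 31, reached the level for testing only through the siCEP20 samples. The median log2 fold change was 0.34 over the tested members and 0.13 over all tested genes. Since the median of all tested genes was above 0, libraries were also scaled by the median of ratios, which moved the median of all tested genes to 9.4e-05. On that scale 19 members were higher, against 20.1% of all tested genes, and 4 were lower, against 21.6%. With the fold change threshold, 7 members were higher there, against 6.05%, and 0 lower, against 7.46%. All 19 were among the 22 members found higher without scaling. For members near 1 TPM, the added 1 makes these log2 fold changes smaller than those of TPM itself.

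**Figure D1:**
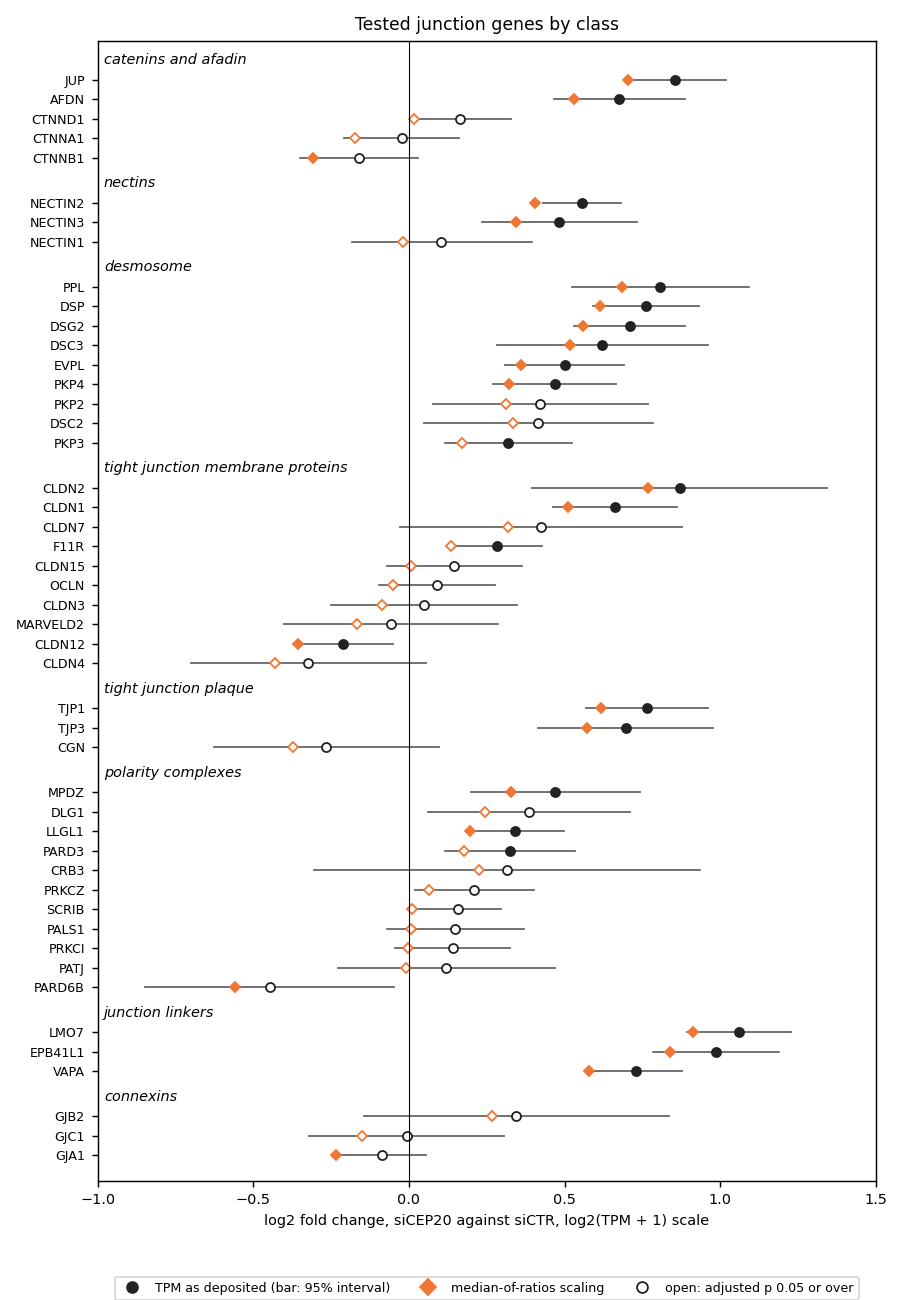
Log2 fold change of siCEP20 against siCTR samples for the 47 tested junction genes, by class, with 3 libraries a group. Black circles with bars are the values from TPM as deposited with their 95% intervals, orange diamonds the values after median-of-ratios scaling, and filled symbols have an adjusted p-value under 0.05. Desmosome genes and junction linkers lie to the right of 0 on both scales, while tight junction membrane proteins and polarity genes lie on either side.

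The start regions of 7 members that rose over 1.5-fold are shown for the letters they hold, chosen by the E-box and by abundance rather than by the size of the change. RefSeq windows of 250 bases before to 50 bases after the annotated gene start (GRCh38.p14) were matched for 38 of the 49 members and searched on both strands for motifs chosen after the expression values were known. The E-box CAGGTG, which zinc finger repressors of epithelial genes such as SNAI1 and ZEB1 can bind, was present in 13 of 38 member windows (34.2%) and in 20.6% of 27305 windows of all genes, or 18.2% of those of tested genes. It was present in 5 of the 12 matched members with a rise over 1.5-fold, TJP1, EPB41L1, DSG2, DSP and AFDN. Among all 17 matched members that rose, the same 5 held it (29.4%), a lower share than over all member windows. AFDN held it 4 times, at positions -150, -126, -114 and -16 from the start. The AP-1 letters TGANTCA were present in 5 member windows (13.2%, against 7.76% of all windows and 4.47% of those of tested genes), the TEAD letters GGAATG in 3 (7.89%, against 14.0% and 10.7%), and the GC box GGGCGG, read by SP and Kruppel-like factors, in 31 (81.6%, against 44.6% of all windows and 70.9% of those of tested genes). The GRHL letters AACCGGTT were in 0 of 38, against 0.117% of all windows and 0.124% of those of tested genes. These are descriptions of letters in a window, and binding was not measured. In the printed windows no E-box overlapped a GC box, and 2 GC boxes of DSP, at -239 and -234, shared 1 letter. RefSeq and GENCODE starts can differ, as for AFDN. The windows are the 5 windows with the E-box among members that rose over 1.5-fold and those of JUP and CLDN1, the most abundant such members without it, 5′ to 3′ on the gene's strand, with E-box and GC box letters in capitals.
TJP1, chr15:29969000-29969299, minus strand: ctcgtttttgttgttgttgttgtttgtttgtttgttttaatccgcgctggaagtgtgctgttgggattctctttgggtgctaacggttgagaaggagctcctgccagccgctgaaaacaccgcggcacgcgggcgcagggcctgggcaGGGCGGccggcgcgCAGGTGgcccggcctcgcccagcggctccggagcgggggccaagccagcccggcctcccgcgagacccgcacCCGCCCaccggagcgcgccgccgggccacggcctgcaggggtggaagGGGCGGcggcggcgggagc
EPB41L1, chr20:36091164-36091463, plus strand: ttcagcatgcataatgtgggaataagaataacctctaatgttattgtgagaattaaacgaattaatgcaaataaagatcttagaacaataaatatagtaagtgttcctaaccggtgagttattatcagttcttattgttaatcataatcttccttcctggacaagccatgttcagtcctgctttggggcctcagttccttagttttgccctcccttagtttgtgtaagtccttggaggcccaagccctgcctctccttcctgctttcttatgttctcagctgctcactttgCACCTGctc
DSG2, chr18:31497927-31498226, plus strand: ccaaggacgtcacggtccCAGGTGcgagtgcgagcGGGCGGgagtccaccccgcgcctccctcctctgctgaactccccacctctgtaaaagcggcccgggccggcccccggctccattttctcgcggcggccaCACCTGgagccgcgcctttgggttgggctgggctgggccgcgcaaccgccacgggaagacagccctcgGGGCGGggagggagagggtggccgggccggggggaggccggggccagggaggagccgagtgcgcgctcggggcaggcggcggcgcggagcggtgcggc
DSP, chr6:7541421-7541720, plus strand: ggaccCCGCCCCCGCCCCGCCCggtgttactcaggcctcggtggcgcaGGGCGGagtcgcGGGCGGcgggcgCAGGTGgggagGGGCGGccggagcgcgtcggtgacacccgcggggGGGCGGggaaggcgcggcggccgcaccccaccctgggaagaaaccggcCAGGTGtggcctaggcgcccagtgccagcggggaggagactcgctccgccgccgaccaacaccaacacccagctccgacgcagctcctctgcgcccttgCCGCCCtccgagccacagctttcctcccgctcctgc
AFDN, chr6:167827385-167827684, plus strand: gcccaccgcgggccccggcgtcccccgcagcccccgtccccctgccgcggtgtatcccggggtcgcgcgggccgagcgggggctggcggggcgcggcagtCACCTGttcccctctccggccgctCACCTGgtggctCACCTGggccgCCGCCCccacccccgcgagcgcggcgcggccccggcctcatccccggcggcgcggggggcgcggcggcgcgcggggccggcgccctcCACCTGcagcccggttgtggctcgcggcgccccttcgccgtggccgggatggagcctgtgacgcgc
JUP, chr17:41786662-41786961, minus strand: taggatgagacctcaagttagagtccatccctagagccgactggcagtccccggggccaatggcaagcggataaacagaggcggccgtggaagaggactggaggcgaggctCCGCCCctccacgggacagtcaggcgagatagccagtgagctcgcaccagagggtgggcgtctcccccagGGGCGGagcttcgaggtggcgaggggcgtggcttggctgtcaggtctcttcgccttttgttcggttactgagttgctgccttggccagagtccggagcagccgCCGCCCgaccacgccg
CLDN1, chr3:190322397-190322696, minus strand: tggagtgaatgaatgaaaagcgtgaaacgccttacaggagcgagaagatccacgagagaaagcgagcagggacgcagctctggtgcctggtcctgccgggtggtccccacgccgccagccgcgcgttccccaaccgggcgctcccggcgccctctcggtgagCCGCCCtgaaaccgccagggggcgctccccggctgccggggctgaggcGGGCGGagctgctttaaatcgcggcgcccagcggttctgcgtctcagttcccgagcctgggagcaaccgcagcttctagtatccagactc

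All 3 junction linkers, proteins that connect junctions with the cytoskeleton or with other membranes, rose. On the log2(TPM + 1) scale LMO7 and EPB41L1 had the highest fold changes of the 47 members, while with 0.1 TPM added in place of 1 the value of CLDN2 (1.23) was above those of LMO7 (1.09) and EPB41L1 (1.01). LMO7, which binds afadin and alpha-actinin at adherens junctions, was at 23.2, 23.0 and 25.4 TPM in the siCTR samples and 48.7, 53.7 and 50.03 TPM in the siCEP20 samples. Its lowest siCEP20 value was far above its highest siCTR value (log2 fold change 1.06, standard error 0.0728, adjusted p = 5.22e-05), and on the log2(TPM + 1) scale it was the 1 member past a fold change of 2. The ratio of mean TPM was also past 2 for CLDN2 (2.31) and EPB41L1 (2.003) among tested members. LMO7 lies on chromosome 13 from 75620434 to 75859870 (hg38) and overlaps an expressed gene without a name on the same strand. EPB41L1, which encodes the membrane skeleton protein 4.1N, was at 39.5, 31.8 and 34.1 TPM in the siCTR samples and 74.2, 68.2 and 68.8 TPM in the siCEP20 samples. The groups were separate, with the highest siCTR value in replicate 1 (log2 fold change 0.99, standard error 0.0882, adjusted p = 0.000128). VAPA, a tether of the endoplasmic reticulum that also binds occludin, was at 45.8, 45.6 and 49.99 TPM in the siCTR samples and 75.8, 80.0 and 80.2 TPM in the siCEP20 samples (log2 fold change 0.73, standard error 0.0643, adjusted p = 0.000122). After median-of-ratios scaling the log2 fold changes of LMO7, EPB41L1 and VAPA were 0.91, 0.84 and 0.58, each with an adjusted p-value under 0.05, and VAPA was then just short of a 1.5-fold change.

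Among the catenins and afadin, JUP and AFDN rose and the 3 other catenins did not pass the test. JUP (plakoglobin), an armadillo protein shared by adherens junctions and desmosomes, was at 252, 261 and 298 TPM in the siCTR samples and 469.7, 490.5 and 507 TPM in the siCEP20 samples. It was the most abundant member in both groups together, and its groups were separate (log2 fold change 0.86, standard error 0.0704, adjusted p = 9.19e-05, chromosome 17 from 41754604 to 41786931). AFDN, the actin-binding scaffold of nectins, was at 17.5, 21.1 and 21.6 TPM in the siCTR samples and 32.2, 31.7 and 33.5 TPM in the siCEP20 samples, again without overlap (log2 fold change 0.68, standard error 0.0918, adjusted p = 0.000815, chromosome 6 from 167826893 to 167972023). CTNNB1 (beta-catenin), the armadillo protein that also acts in WNT signalling, was at 114, 139 and 139 TPM in the siCTR samples and 118, 118 and 113 TPM in the siCEP20 samples. These groups overlapped, since siCTR replicate 1 lay among the siCEP20 values (log2 fold change -0.16, 95% interval -0.35 to 0.029, adjusted p = 0.151). It was lower after median-of-ratios scaling (-0.31, adjusted p = 0.00641) and without siCTR replicate 1 (-0.25, adjusted p = 0.013). CTNNA1 (alpha-catenin), which carries the bond to actin, was at 195, 241 and 216 TPM in the siCTR samples and 204, 224 and 212 TPM in the siCEP20 samples, with overlapping groups and a log2 fold change of -0.023 (adjusted p = 0.837), 95% interval -0.21 to 0.16. CTNND1 (p120-catenin), which holds cadherins at the membrane, was at 87.7 ± 6.52 against 98.3 ± 3.88 TPM with separate groups and 0.17 (adjusted p = 0.0907), 95% interval 0.0040 to 0.33. CTNNA1, CTNNB1 and CTNND1 each overlap an expressed gene on 1 of the strands.

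The same levels of the armadillo catenins can be given as shares within each library, where the scale between libraries has no part. JUP made up 56.4%, 53.3% and 56.3% of the summed TPM of JUP, CTNNB1 and CTNND1 in the siCTR samples and 68.4%, 69.0% and 71.0% in the siCEP20 samples, so its mean share went from 55.3% ± 1.78 to 69.5% ± 1.35 (SD, n = 3). The share of CTNNB1 went from 26.7% ± 1.47 to 16.5% ± 0.657 and that of CTNND1 from 18.0% ± 0.403 to 14.0% ± 0.703. The shares of a family add up to the whole, so a larger share of JUP makes the others smaller. This includes the share of CTNND1, whose TPM was not lower. In each of these 3 shares the groups were separate, with p = 0.1 in a two-sided exact permutation test, which cannot go lower with 3 libraries a group. Over 29 such shares computed in 9 gene families, 3 were higher and 6 lower without overlap.

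**Figure D2:**
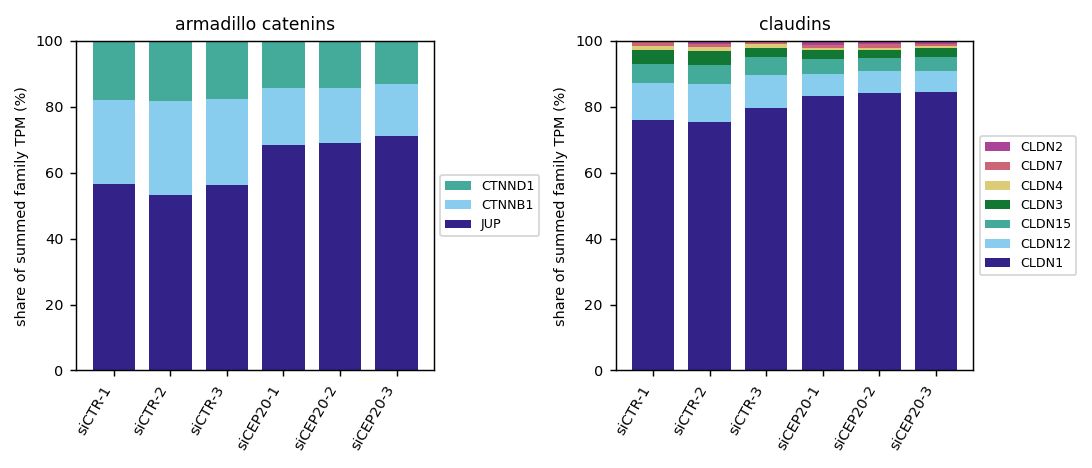
Share of each gene in the summed TPM of its family, in percent, in each of the 6 libraries, for the armadillo catenins (left) and 7 claudins (right). JUP rises from at most 56.4% of the catenin sum in siCTR to at least 68.4% in siCEP20 libraries, and CLDN1 from at most 79.7% to at least 83.3% of the claudin sum.

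Of the 3 tested nectins, which bind nectins on neighbouring cells, NECTIN2 and NECTIN3 rose and NECTIN1 did not pass. NECTIN2, by far the most abundant, was at 116, 126 and 123 TPM in the siCTR samples and 177, 179 and 183 TPM in the siCEP20 samples, with separate groups (log2 fold change 0.56, standard error 0.0546, adjusted p = 0.000194). NECTIN3 was at 9.88, 12.5 and 11.9 TPM in the siCTR samples and 15.0, 17.7 and 16.2 TPM in the siCEP20 samples (log2 fold change 0.48, standard error 0.108, adjusted p = 0.00809). Neither reached a 1.5-fold change, and both remained higher after median-of-ratios scaling, with log2 fold changes of 0.41 and 0.34. NECTIN1 was at 4.38 ± 0.0830 against 4.82 ± 0.724 TPM, with overlapping groups and 0.10 (adjusted p = 0.534), 95% interval -0.18 to 0.39. NECTIN4, below the level needed for testing, was at 0.351, 0.571 and 0.402 TPM in the siCTR samples and 0.562, 1.02 and 1.21 TPM in the siCEP20 samples. Within the family, NECTIN2 held 88.3% ± 0.492 to 89.1% ± 0.885 of the summed TPM, a share whose groups overlapped. The share of NECTIN1 was lower in every siCEP20 library (from 3.18% ± 0.168 to 2.39% ± 0.364), although its TPM was not lower.

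The desmosome genes among the members moved in 1 direction. In all 9 genes every siCEP20 value was above every siCTR value, against 38.4% of all tested genes. At an adjusted p-value under 0.05, 7 of the 9 were higher (77.8%, against 30.2%), 4 of these by over 1.5-fold (against 11.2%). With the length and GC correction described below, 5 were higher (55.6%, against 19.9% of all tested genes) and 0 of these by over 1.5-fold. The class median of the log2 fold change was 0.50, or 0.36 after median-of-ratios scaling. DSP (desmoplakin), which ties the plaque to keratin filaments, was at 28.3, 31.7 and 32.7 TPM in the siCTR samples and 52.8, 54.5 and 51.6 TPM in the siCEP20 samples (log2 fold change 0.76, standard error 0.0740, adjusted p = 0.000187, chromosome 6 from 7541338 to 7586714). DSG2, the main desmoglein of simple epithelia, was at 34.1, 38.3 and 40.6 TPM in the siCTR samples and 62.3, 63.9 and 59.97 TPM in the siCEP20 samples (log2 fold change 0.71, standard error 0.0773, adjusted p = 0.000304, chromosome 18 from 31498177 to 31549008). In both genes the lowest siCEP20 value was more than 10 TPM above the highest siCTR value. DSC3, a desmocollin, was at 1.40, 2.03 and 1.73 TPM in the siCTR samples and 3.09, 3.36 and 3.05 TPM in the siCEP20 samples (log2 fold change 0.62, standard error 0.147, adjusted p = 0.0105). DSC2, another desmocollin, was at 0.840, 0.909 and 1.02 TPM in the siCTR samples and 1.49, 1.62 and 1.58 TPM in the siCEP20 samples and did not pass, at 0.42 (adjusted p = 0.0671). Its siCTR mean was 0.923 TPM, so it reached the level for testing only through the siCEP20 samples. Periplakin and envoplakin are plakin proteins of the desmosomal plaque and the cornified envelope, and both rose. PPL was at 3.16, 4.07 and 3.36 TPM in the siCTR samples and 6.28, 7.28 and 7.18 TPM in the siCEP20 samples (log2 fold change 0.81, standard error 0.124, adjusted p = 0.0014). EVPL went from 10.9 ± 0.718 to 15.8 ± 0.1704 TPM (mean ± SD, n = 3 per group), a log2 fold change of 0.50 (adjusted p = 0.00202). It overlaps CDK3 on the opposite strand, as DSP overlaps DSP-AS1.

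Plakophilins are armadillo proteins that cluster desmosomal cadherins. PKP4 rose from 27.6 ± 2.61 to 38.5 ± 1.86 TPM (mean ± SD, n = 3 per group), a log2 fold change of 0.47 (adjusted p = 0.00322). PKP3 rose from 30.7 ± 3.22 to 38.4 ± 1.95 TPM (mean ± SD, n = 3 per group), with 0.32 (adjusted p = 0.0205), but its adjusted p was 0.132 after median-of-ratios scaling and reached 0.0705 without siCEP20 replicate 2. PKP2 was at 2.02, 2.76 and 2.25 TPM in the siCTR samples and 3.14, 3.27 and 4.04 TPM in the siCEP20 samples, with separate groups and 0.42 (adjusted p = 0.0513), which missed the threshold. Across the desmosome members, the ratio of mean TPM ran from 1.25 for PKP3 to 1.96 for PPL. Within the desmosomal cadherins and within the plakophilins, the shares of single genes differed little between the groups. DSG2 held 93.5% ± 0.511 to 92.9% ± 0.205 of the summed TPM of DSG2, DSC2 and DSC3 (SD, n = 3), and PKP3 held 50.6% ± 3.10 to 47.8% ± 2.21 of that of the 3 plakophilins, with overlapping groups in both cases (exact permutation p = 0.2 and 0.3).

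**Figure D3:**
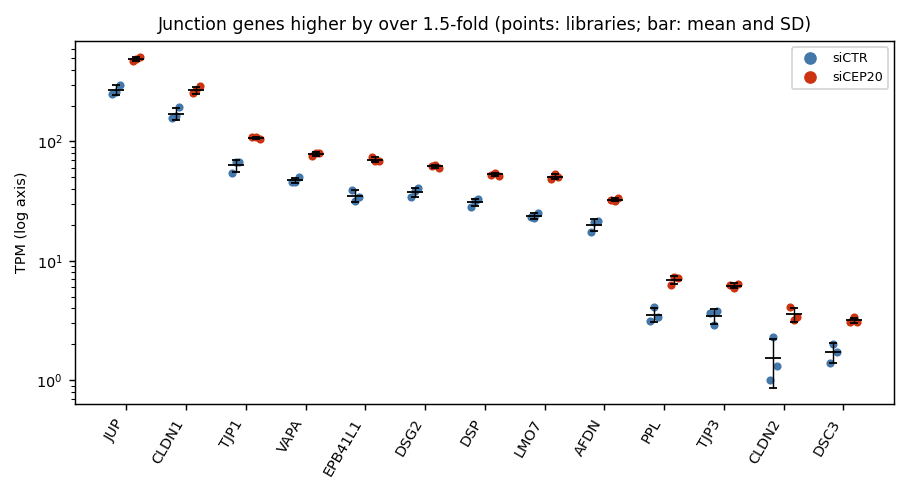
TPM of the 13 junction genes that were higher by over 1.5-fold, on a log axis, with a point for each library (siCTR blue, siCEP20 red) and bars for the mean and SD of 3 libraries. In all 13 the siCEP20 points lie above the siCTR points, from JUP near the top to DSC3 at 1.40 to 3.36 TPM.

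The membrane proteins of tight junctions lay on either side of 0. Of 10 tested members, CLDN1, CLDN2 and F11R rose, CLDN12 fell and 6 did not pass, which is close to the 30.2% higher and 13.2% lower of all tested genes. The class median of the log2 fold change was 0.12, or -0.022 after median-of-ratios scaling. CLDN1, a sealing claudin, was by far the most abundant, at 157, 163 and 193 TPM in the siCTR samples and 252, 269 and 289 TPM in the siCEP20 samples. Its groups were separate (log2 fold change 0.66, standard error 0.0869, adjusted p = 0.000696, chromosome 3 from 190305707 to 190322446). CLDN2, which forms a pore for cations and water, was at 1.01, 2.30 and 1.31 TPM in the siCTR samples and 4.13, 3.17 and 3.37 TPM in the siCEP20 samples, low in both groups but without overlap (log2 fold change 0.87, standard error 0.206, adjusted p = 0.0105). It overlaps MORC4 on the opposite strand, and its call was lost when no filter on low TPM was used. CLDN12 was at 23.5, 24.3 and 24.1 TPM in the siCTR samples and 19.6, 20.9 and 21.2 TPM in the siCEP20 samples, narrowly separate (log2 fold change -0.21, standard error 0.0703, adjusted p = 0.0401). That call was lost whichever of the 6 libraries was left out, with adjusted p-values up to 0.126, but after median-of-ratios scaling CLDN12 was lower with -0.36 (adjusted p = 0.00282). GTPBP10, an expressed gene, overlaps it on the same strand.

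The remaining claudins among the members did not pass the test, while CLDN23, which is not a member and was lower, is given with the other genes below. CLDN3 was at 8.97, 8.63 and 6.58 TPM in the siCTR samples and 8.76, 7.52 and 8.67 TPM in the siCEP20 samples, with overlapping groups (log2 fold change 0.048, 95% interval -0.25 to 0.35, adjusted p = 0.786). CLDN15, another pore-forming claudin, was at 11.6, 13.0 and 12.9 TPM in the siCTR samples and 13.9, 12.8 and 15.3 TPM in the siCEP20 samples, also overlapping, with a log2 fold change of 0.15 (adjusted p = 0.248). CLDN4 was at 2.57, 2.54 and 2.99 TPM in the siCTR samples and 1.46, 2.15 and 2.33 TPM in the siCEP20 samples, below the siCTR values in every siCEP20 library, with a log2 fold change of -0.32 (adjusted p = 0.146). CLDN7 was at 2.17, 2.07 and 1.31 TPM in the siCTR samples and 2.69, 3.61 and 2.19 TPM in the siCEP20 samples, narrowly above them, with a log2 fold change of 0.43 (adjusted p = 0.115). It overlaps ELP5 on the opposite strand. Within the summed TPM of the 7 claudins, the share of CLDN1 was 75.9%, 75.5% and 79.7% in the siCTR samples and 83.3%, 84.3% and 84.5% in the siCEP20 samples. That of CLDN12 went from 10.9% ± 0.771 to 6.41% ± 0.186, that of CLDN15 from 5.67% ± 0.366 to 4.35% ± 0.304 and that of CLDN4 from 1.22% ± 0.0338 to 0.611% ± 0.111 (SD, n = 3). The groups were separate in these 4 shares, each with an exact permutation p of 0.1. As the shares add up to the whole, a larger share of CLDN1 makes the others smaller. This includes the share of CLDN15, whose TPM was not lower.

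F11R, the junctional adhesion molecule JAM-A, rose from 40.0 ± 1.81 to 48.8 ± 1.15 TPM (mean ± SD, n = 3 per group), a log2 fold change of 0.28 (adjusted p = 0.00862), which was 0.13 (adjusted p = 0.0916) after median-of-ratios scaling. OCLN (occludin) was at 11.2, 11.4 and 11.2 TPM in the siCTR samples and 11.7, 12.7 and 11.7 TPM in the siCEP20 samples. Its siCEP20 values were narrowly above the siCTR values, with 0.089 (adjusted p = 0.408) and a 95% interval of -0.10 to 0.28, and the sign of the change depended on the scale, since it was -0.050 after median-of-ratios scaling. MARVELD2 (tricellulin), which seals the contacts of 3 cells, was at 2.62 ± 0.421 against 2.48 ± 0.288 TPM with overlapping groups and -0.058 (adjusted p = 0.778).

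In the plaque beneath, both zonula occludens genes rose. TJP1, which encodes ZO-1 and ties claudins and occludin to actin, was at 54.9, 66.9 and 67.9 TPM in the siCTR samples and 108, 109.5 and 106 TPM in the siCEP20 samples (log2 fold change 0.77, standard error 0.0857, adjusted p = 0.00034, chromosome 15 from 29699367 to 29968915). TJP3, which encodes ZO-3, was at 3.65, 2.91 and 3.79 TPM in the siCTR samples and 6.22, 5.88 and 6.45 TPM in the siCEP20 samples (log2 fold change 0.70, standard error 0.123, adjusted p = 0.0027). Both had separate groups, and TJP1 made up 94.8% ± 1.03 to 94.6% ± 0.334 of their summed TPM with overlapping groups (SD, n = 3, exact permutation p = 0.8). Expressed genes overlap both on the opposite strand, APBA3 in the case of TJP3. CGN (cingulin), which binds ZO proteins and microtubules, was at 2.33, 2.63 and 3.42 TPM in the siCTR samples and 1.92, 2.21 and 2.29 TPM in the siCEP20 samples, with every siCEP20 value below every siCTR value but -0.27 (adjusted p = 0.205). Once length and GC content were corrected for, it was lower with -0.48 (adjusted p = 0.0283). Its paralog CGNL1 was at 0.778, 0.498 and 0.741 TPM in the siCTR samples and 0.875, 0.595 and 1.03 TPM in the siCEP20 samples and was not tested.

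Of 11 polarity genes 3 were higher (27.3%, near the 30.2% of all tested genes), 0 were lower and 0 were past the fold change thresholds. At an unadjusted p-value under 0.05 (limma), 6 were higher and 1 lower, against 35.8% and 15.8% of all tested genes. The class had a median log2 fold change of 0.21, or 0.06 after median-of-ratios scaling. PARD3, the PAR scaffold that places tight junctions, rose from 71.1 ± 8.64 to 89.0 ± 4.96 TPM (mean ± SD, n = 3 per group), with log2 fold change 0.33, standard error 0.0909, adjusted p = 0.0207. It was the most abundant of the class, and its adjusted p was 0.111 after median-of-ratios scaling and reached 0.0686 without siCTR replicate 2. MPDZ, a multi-PDZ scaffold, was at 10.9, 14.9 and 13.8 TPM in the siCTR samples and 19.3, 19.2 and 17.2 TPM in the siCEP20 samples (log2 fold change 0.47, standard error 0.118, adjusted p = 0.0133). LLGL1, a partner of SCRIB, was at 24.7, 26.6 and 26.9 TPM in the siCTR samples and 32.2, 33.7 and 34.0 TPM in the siCEP20 samples, with separate groups (log2 fold change 0.34, standard error 0.0689, adjusted p = 0.0051). It overlaps FLII on the opposite strand. The other members of the Scribble module, SCRIB and DLG1, also had separate groups, at 71.5 ± 2.05 against 80.0 ± 3.07 TPM and 13.8 ± 2.81 against 18.1 ± 1.03 TPM, but missed the threshold with 0.16 (adjusted p = 0.0588) and 0.39 (adjusted p = 0.0566).

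PARD6B, the adaptor that joins atypical protein kinase C to PARD3, was at 3.39, 3.14 and 4.72 TPM in the siCTR samples and 1.98, 2.55 and 2.88 TPM in the siCEP20 samples. Every siCEP20 value was below every siCTR value, with -0.45 (adjusted p = 0.0691). After median-of-ratios scaling it was lower, with -0.56 (adjusted p = 0.0266). The atypical protein kinase C genes did not pass, with 0.14 (adjusted p = 0.191) for PRKCI and 0.21 (adjusted p = 0.0739) for PRKCZ, and PRKCI held 41.9% ± 2.48 to 40.7% ± 1.47 of their summed TPM. In the Crumbs complex, PALS1 and PATJ had overlapping groups and log2 fold changes of 0.15 (adjusted p = 0.243) and 0.12 (adjusted p = 0.552). CRB3, its membrane protein, was at 0.662, 1.75 and 2.61 TPM in the siCTR samples and 2.04, 2.37 and 2.1 TPM in the siCEP20 samples, with overlapping groups, a wide siCTR spread and a 95% interval of -0.30 to 0.94. PALS1, PRKCZ and CRB3 each overlap expressed genes on the opposite strand.

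None of the 3 connexins passed the test (limma), while 30.2% of all tested genes were higher and 13.2% lower. At an unadjusted p-value under 0.05, 0 of the 3 passed, since each 95% interval included 0. Among all tested genes 35.8% were higher and 15.8% lower at that unadjusted threshold. GJA1 (connexin 43), the most abundant, was at 143, 155 and 160.2 TPM in the siCTR samples and 138, 146 and 146 TPM in the siCEP20 samples, with overlapping groups (log2 fold change -0.086, 95% interval -0.23 to 0.055, adjusted p = 0.293). After median-of-ratios scaling it was lower, with -0.24 (adjusted p = 0.0041). GJC1 (connexin 45) was at 16.0, 23.4 and 20.2 TPM in the siCTR samples and 21.7, 19.3 and 17.8 TPM in the siCEP20 samples, overlapping as well (log2 fold change -0.0076, 95% interval -0.32 to 0.31, adjusted p = 0.969). GJB2 (connexin 26) was at 0.813, 1.03 and 0.904 TPM in the siCTR samples and 2.19, 1.18 and 1.08 TPM in the siCEP20 samples. Its siCEP20 values lay above the siCTR values, most of all in replicate 1, with 0.35 (adjusted p = 0.223). The siCTR mean of GJB2 was 0.917 TPM, so it reached the level for testing only through the siCEP20 samples. The summed TPM of the 3 connexins was 159, 179 and 181 in siCTR and 162, 167 and 165 in siCEP20 libraries, the only one of the 8 classes whose summed groups overlapped.

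**Figure D4:**
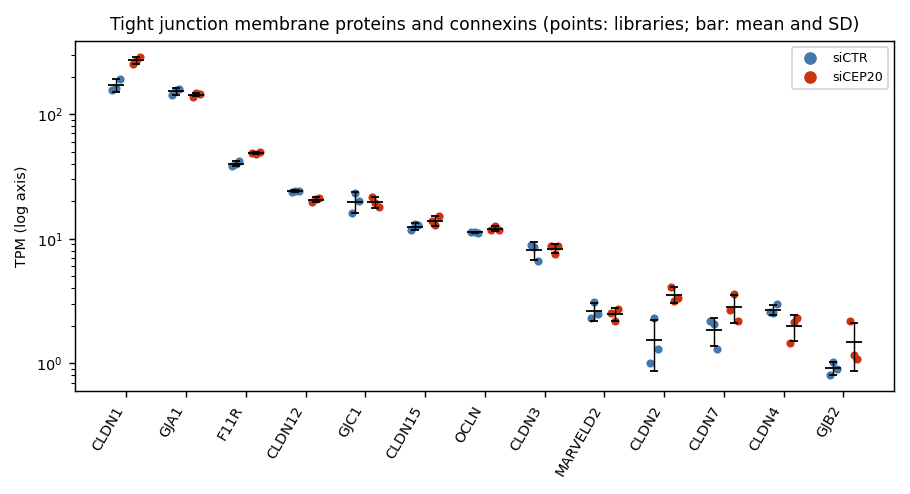
TPM of the 10 tight junction membrane proteins and the 3 connexins, on a log axis, with a point for each library (siCTR blue, siCEP20 red) and bars for the mean and SD of 3 libraries. CLDN1 is higher in siCEP20 samples, the GJA1 groups overlap, and CLDN12 is narrowly lower.

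Other genes of the same junctions, from lists written with earlier results of these data known, are given for comparison. Of 103 listed genes 60 were tested, of which 33 passed the same test as higher (55.0%, against 30.2% of all tested genes) and 4 as lower (6.67%, against 13.2%). Their log2 fold changes had a median of 0.36. After median-of-ratios scaling 25 were higher (41.7%, against 20.1%) and 8 lower (13.3%, against 21.6%). In the adherens junction list (22 tested of 28), 14 were higher (63.6%, against 30.2%) and 1 lower (4.55%, against 13.2%). ACTN4, an alpha-actinin that crosslinks actin, rose from 668 ± 17.1 to 986 ± 17.2 TPM (mean ± SD, n = 3 per group), a log2 fold change of 0.56 (adjusted p = 7.78e-05), and overlaps CAPN12 on the opposite strand. The E-cadherin gene CDH1 rose from 11.8 ± 0.682 to 23.2 ± 1.18 TPM (mean ± SD, n = 3 per group), a log2 fold change of 0.92 (adjusted p = 0.000128). VCL (vinculin), which reinforces catenins on actin, fell from 112 ± 12.3 to 60.03 ± 1.10 TPM (mean ± SD, n = 3 per group), with -0.88 (adjusted p = 0.000148), and overlaps AP3M1 on the opposite strand. CDH2 (N-cadherin) rose from 21.5 ± 2.49 to 33.6 ± 1.86 TPM (mean ± SD, n = 3 per group), with 0.62 (adjusted p = 0.00146), and both cadherins are named here after their values were seen.

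In the desmosome list 2 of 8 genes were tested and 1 was higher, PERP, a membrane protein needed for desmosomes in stratified epithelia, from 89.3 ± 5.39 to 179 ± 5.18 TPM (mean ± SD, n = 3 per group), log2 fold change 1.00 (adjusted p = 3.9e-05). The other, KAZN, did not pass, at 2.815 ± 0.479 against 2.356 ± 0.548 TPM with overlapping groups and -0.19 (adjusted p = 0.407). The tight junction list (19 tested of 37) held 11 higher (57.9%, against 30.2% of all tested genes) and 1 lower (5.26%, against 13.2%). EPCAM, an epithelial adhesion molecule that binds claudins, rose from 1.04 ± 0.205 to 3.38 ± 0.427 TPM (mean ± SD, n = 3 per group), log2 fold change 1.10 (adjusted p = 0.00104), and CLDN23 fell from 10.6 ± 1.32 to 6.72 ± 0.463 TPM (mean ± SD, n = 3 per group), log2 fold change -0.59 (adjusted p = 0.00383). Of the polarity list (13 tested of 18), 5 were higher (38.5%, near the 30.2% of all tested genes) and 2 lower (15.4%, near the 13.2%). After median-of-ratios scaling 3 were higher and 3 lower (23.1% each, against 20.1% and 21.6% of all tested genes). DLG5, a scaffold of the Discs large family, rose from 22.4 ± 2.43 to 35.6 ± 1.24 TPM (mean ± SD, n = 3 per group), log2 fold change 0.65 (adjusted p = 0.000804). STK11 (LKB1), a polarity kinase and tumour suppressor, fell from 46.2 ± 0.864 to 38.6 ± 2.68 TPM (mean ± SD, n = 3 per group), log2 fold change -0.26 (adjusted p = 0.0195), and overlaps CBARP on the opposite strand. PARD6A fell with -0.46 (adjusted p = 0.0304), without reaching the fold change threshold, and was named after its values were seen because it is a paralog of PARD6B. In the gap junction list (4 tested of 12), 2 were higher and 0 lower, and GJD3, a connexin, rose from 13.7 ± 1.08 to 23.5 ± 0.510 TPM (mean ± SD, n = 3 per group), log2 fold change 0.74 (adjusted p = 0.000324).

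Longer transcripts had higher fold changes on average. Members had a median transcript length of 4853 bases, against 2818 bases for all tested genes, and 38 of the 47 were longer than that. Across genes, which are not independent replicates, Spearman's rho between length and log2 fold change was 0.254 over 14737 tested genes and 0.277 over the 47 members. With log2 values corrected for length and GC content in each library, 16 members were higher, against 19.9% of all tested genes, and 6 lower, against 21.3%. The 16 were all higher under median-of-ratios scaling as well, and the lower ones were CTNNA1, CTNNB1, CLDN12, CGN, PARD6B and GJA1. By class, 5 desmosome genes, all 3 linkers, 2 nectins, 2 zonula occludens genes, JUP, AFDN, CLDN1 and CLDN2 were the ones higher, and no polarity gene was among them. The part of transcript length in the changes was not tested beyond this correction.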

How the data were processed

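RNA-seq of A549 cells (3 siCEP20, 3 siCTR samples) was deposited by the authors as TPM per Ensembl gene. Per the methods and labels, reads were trimmed (fastp 0.20.1), aligned to hg38 (HISAT2 2.1.0) and quantified (StringTie 2.0). The library protocol is stranded in the methods, but use of strand in quantification and the annotation release are not given in the sources used here. Depth is unknown, so precision rests on replicates.

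Columns were mapped to samples by name, and genes were placed with GENCODE release 44. The 14778 genes whose mean reached 1 TPM were compared as log2(TPM + 1) with limma 3.58.1 in R 4.3.3 (eBayes with a trend, no rescaling), adjusted by Benjamini-Hochberg over all tested genes. Called members passed an adjusted p-value under 0.05, with or without a fold change over 1.5 or under 0.67, as stated. Shares used exact permutation tests (scipy 1.17.1). The members, classes, lists and tests were chosen with earlier results of these data known. Values were given for members past the fold threshold, for the most abundant and the lowest adjusted p in each class, for claudins and connexins, and from each other list for the called gene with the smallest adjusted p in each direction. Alternatives were pseudocount, filter, scaling, trend, replicate block, length and GC correction (loess, span 0.5, canonical transcript), fold threshold and leaving out each library. The steps were tested on simulated data.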

Additional observations from a re-analysis of the deposited data

How the results depend on the processing

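Of 645 results of single members under alternatives, 568 kept their direction and side of the threshold, 29 lost the call, 20 gained it and 28 changed sign, with 0 of the 28 past the threshold. With libraries left out in turn, the count of higher members ran from 20 to 23, past 1.5-fold from 11 to 13 and of lower members from 0 to 1. Among all tested genes, the higher ones then ran from 3351 to 4340 and the lower ones from 1492 to 1736. PKP3 and PARD3 lost their call in some of these fits and CLDN12 in all 6, while CTNNB1 was lower without siCTR replicate 1. Lower members numbered 4 with median-of-ratios scaling, 4 with quantile normalization, 6 with the length and GC correction and 0 with the replicate block. Among all tested genes, the lower ones numbered 1944 in the main fit and 3185, 2938, 3144 and 1857 in these 4 fits. Members past 1.5-fold numbered 7 with median-of-ratios scaling, 4 with the length and GC correction and 1 with a fold change of 2 required. With a fold under 0.67, 1 member (PARD6B) was lower with the length and GC correction and 1 with quantile normalization. The replicate number as a block left 23 members higher, adding DLG1, and took the call from CLDN12 (adjusted p = 0.0599), with no other change of call. Same-numbered libraries had correlations of their deviations of 0.157, -0.0614 and -0.0623, so the numbers were not used as pairs.

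With the length and GC correction, log2 fold changes were -0.071 for CTNND1, -0.13 for NECTIN1, -0.15 for OCLN, -0.082 for PRKCI, -0.084 for PALS1, -0.14 for PATJ and -0.087 for SCRIB. With median-of-ratios scaling they were -0.020 for NECTIN1, -0.087 for CLDN3, -0.050 for OCLN, -0.0036 for PRKCI and -0.0080 for PATJ. With quantile normalization they were -0.073 for NECTIN1, -0.12 for CLDN3, -0.015 for CLDN15, -0.076 for OCLN, -0.0066 for PRKCI and -0.057 for PATJ. With 1 library left out, values ran from -0.10 to 0.053 for CTNNA1, -0.075 to 0.12 for CLDN3, -0.12 to 0.034 for MARVELD2, -0.0037 to 0.28 for PATJ and -0.15 to 0.11 for GJC1. The cause was not tested. CEP20 kept its call in every alternative. Depth is unknown, and CRB3, GJB2 and CLDN2, all below 5 TPM, had the widest 95% intervals of the tested members.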

Other observations

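In 34 of the 47 tested junction genes (72.3%), siCTR replicate 1 had the lowest of the 3 siCTR values, against 53.3% of all tested genes. The summed TPM of all 49 members was 1761 in that library, 1934 and 2012 in siCTR replicates 2 and 3, and 2501, 2584 and 2589 in the siCEP20 libraries. Without siCTR replicate 1, 20 members were higher and 11 were past 1.5-fold, since AFDN and DSC3 then fell short of that fold. Among all genes tested without that library, 3598 of 14818 were higher. What sets that library apart was not tested.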
